A study of Mus musculus with 18 samples.

Results

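The genes described here are the enzymes that add methyl groups to histones or remove them. They are 40 listed genes for lysine methyltransferases, lysine demethylases and arginine methyltransferases, followed on 18 Affymetrix mouse expression arrays. A gene was included when the annotation of the array pairs at least 1 probe set with its symbol alone, which held for 38 of the 40 genes and 105 probe sets among 18194 genes and 45101 probe sets in all. Suv39h1 and Ash1l had no such probe set in the annotation used and are only named. Each gene was represented by its brightest probe set, chosen by the mean signal over all arrays. Of the 38 genes, 37 reached a mean signal of 100 in at least 1 group and were tested, as were 10576 genes overall. Smyd5 was too dim to test, with signals between 32.23 and 99.53 on all arrays.

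Histone methylation marks chromatin in a way that depends on the residue. Methylation of lysine 4 of histone H3 (H3K4) is found at promoters and enhancers of active genes, and that of H3K36 and H3K79 along transcribed genes. Methylation of H3K9 and H3K27 and trimethylation of H4K20 mark silent or compacted chromatin. SET domain enzymes and Dot1l write the lysine marks, PRMT enzymes methylate arginines, and Kdm1a and the Jumonji enzymes remove lysine methylation. Histone deacetylases, which TSA inhibits, act on lysine acetylation and not on methylation, so these genes stand for another layer of the histone code.

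The study asked how BMP2, a growth factor of the TGF-beta superfamily, and trichostatin A (TSA), an inhibitor of histone deacetylases, act on differentiating neural precursor cells. Neurospheres, floating cultures of neural stem and progenitor cells, were grown from both ganglionic eminences, the lateral and the medial, of C57BL/6J embryos (E15.5), dissociated, plated and differentiated without EGF. The groups were control cultures (2 arrays), cultures with 10 ng/ml BMP2 (2 arrays) and cultures with 50 nM TSA (2 arrays) at 6 h, and controls (6 arrays), 10 ng/ml BMP2 (2 arrays) and 50 nM TSA (4 arrays) at 24 h. No group carries a genetic change that the labels name, no array combined the agents, and each culture is a mixture of cell types. The labels do not say that replicates are separate cultures, and the p-values therefore reflect no more than the spread of these arrays, which may be technical. In bulk RNA, fewer cells of a type and less RNA per cell cannot be told apart.

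Within groups the arrays correlated at 0.963 to 0.994, and the deposited array medians lay between 35.4 and 41.6. At 24 h, however, controls 5 and 6 and both BMP2 arrays stood apart from every other array. A probe set of Xist, the RNA that coats the inactive X chromosome, read 703.1 to 2086 on these 4 arrays and 18.41 to 75.51 on the other 14 arrays. A second Xist probe set separated them too (2197 to 4467 against 325.4 to 1875), while the remaining, dimmer one was mostly lower on the 4 arrays (23.41 to 97.51 against 66.75 to 375.3). The labels name no batch. Among the 37 tested genes, controls 5 and 6 both lay above controls 1 to 4 for 18 genes and below them for 4, against 24.1% and 14.8% of all tested genes. The TSA arrays of 24 h were all on the side of controls 1 to 4, so 24 h results are also given with this split as a term of the fit. Marker genes of cell types also moved. Summed signals of 19 oligodendrocyte lineage markers were 46090 to 73050 in the 24 h controls, 18780 to 35160 with TSA and 16990 to 17040 with BMP2, and 14 of the 19 markers fell with TSA and 13 with BMP2. At 6 h these sums were 55740 to 65240 in controls, 43260 to 54730 with BMP2 and 34160 to 40410 with TSA. Of 10 neuron markers, 3 fell and 1 rose with TSA at 6 h, and 4 fell and 1 rose at 24 h. Summed neuron markers were 5961 to 8343 in the 24 h controls and 3598 to 4477 with TSA. Summed signals of 10 astrocyte markers were 33790 to 43210 in the 24 h controls, 34030 to 41600 with TSA and 27470 to 30470 with BMP2. At 6 h the astrocyte sums were 33780 to 36530 in controls and 26710 to 28910 with TSA, and 3 of the 10 markers fell with TSA at each time and 5 with BMP2 at 24 h. Of 8 neural stem cell markers, 2 fell with TSA at 6 h, 2 rose and 2 fell with TSA at 24 h, and 1 rose with BMP2 at 24 h. The sums of 5 endothelial markers were low, at 116.4 to 155.4 in the 24 h controls, 154.2 to 221.1 with TSA and 314.2 to 357.9 with BMP2. Most of each sum was Kdr, with 24 h means of 90.88 in controls, 133.3 with TSA and 280.3 with BMP2. The other 4 endothelial markers were too dim to test, with no group mean above 21.46. All 7 microglia markers were too dim to test, with sums of 48.13 to 83.25. What part these shifts have in the results was not tested.

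TSA lowered more of the histone methylation genes than it raised. At 6 h, 12 of the 37 tested genes passed an adjusted p of 0.05, 9 lower and 3 higher, while 26.3% of all tested genes passed, 11.8% lower and 14.4% higher. At 24 h, 23 genes passed, 20 lower and 3 higher, against 38.7% of all tested genes, 20.1% lower and 18.6% higher. The median log2 difference of the 37 genes was -0.38 at 6 h and -0.36 at 24 h, and that of all tested genes was 0.02 and -0.02. BMP2 changed few of them. None passed at 6 h, where 1.79% of all tested genes passed, 0.634% lower and 1.15% higher, and 4 passed at 24 h, all lower, where 17.6% of all tested genes passed, 7.72% lower and 9.93% higher. By an unadjusted p under 0.05, 2 of the 37 genes differed with BMP2 at 6 h (Jmjd1c and Smyd2), beside 7.34% of all tested genes, and the study's criteria of fold, difference and confidence picked 0. The median log2 difference with BMP2 was -0.09 at 6 h and 0.04 at 24 h, beside -0.01 and 0.03 over all tested genes. BMP2 and TSA of the same time share their control arrays.

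**Figure D1:**
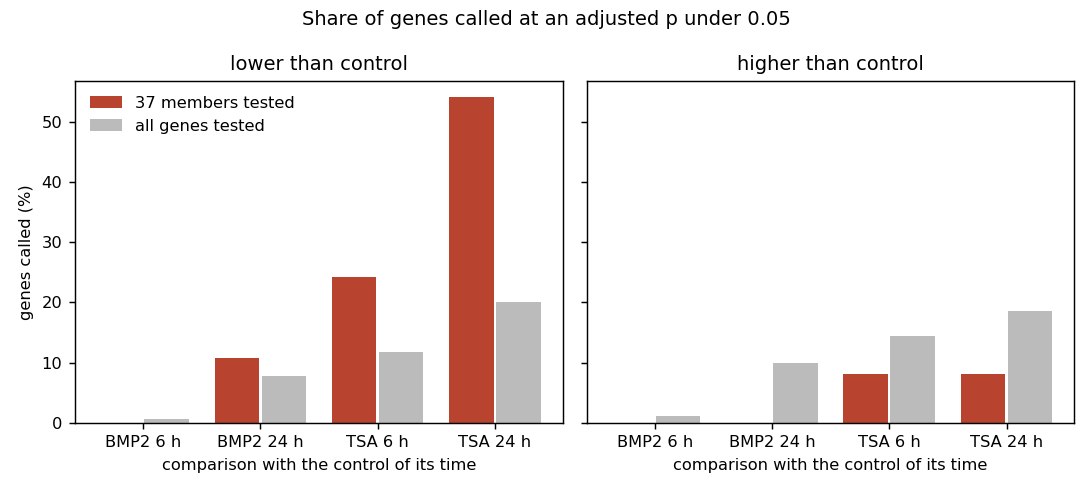
Bars give the share of genes called at an adjusted p under 0.05 (percent, from 0) in each comparison with the control of its time, for the 37 tested histone methylation genes (red) and for all 10576 tested genes (grey). The left panel shows genes lower than control, where the red bars are 24.3% at 6 h and 54.1% at 24 h with TSA, and the right panel those higher than control, where both are 8.11%.

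**Figure D2:**
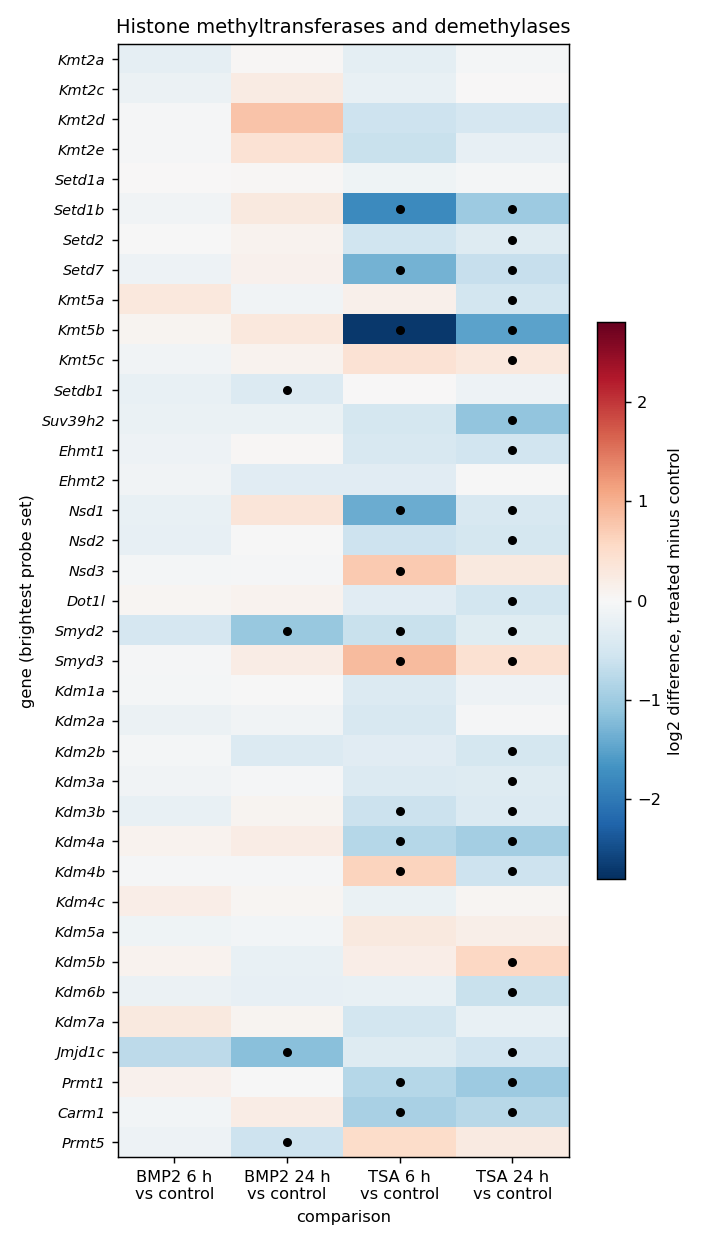
Each row is one of the 37 tested genes and each column a treatment against the control of its time. Colour gives the log2 difference (blue lower, red higher than control) and a dot marks an adjusted p under 0.05, with Kmt5b at -2.70 in the TSA 6 h column as the darkest field.

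The writers of H4K20 methylation gave the largest difference. Kmt5b (Suv420h1), which takes H4K20 to the dimethyl and trimethyl state, read 761.1 and 738.8 in the 6 h controls and 815.0 and 769.6 with BMP2. With TSA for 6 h it read 90.9 and 85.01, far below every other array of that time. At 24 h the controls had a lowest signal of 750.5, a median of 888.3 and a highest of 1011, and the BMP2 arrays read 1166 and 1022. The TSA arrays of 24 h read 286.9, 404.9, 269.7 and 230.2, again with no overlap. Kmt5b fell by 2.70 on the log2 scale at 6 h (SE 0.20, adjusted p 2.47e-06), a ratio of mean signals of 0.117, and by 1.50 at 24 h (SE 0.13, adjusted p 6.16e-07), a ratio of 0.335. Because 32 is added before the log, the 6 h difference of so dim a group is understated. A dimmer probe set of Kmt5b fell by 2.23 at 6 h and fell by 0.94 at 24 h. Kmt5a (Setd8), the monomethylase of H4K20, passed only at 24 h, when it fell by 0.52 (SE 0.14, adjusted p 0.00897). Its TSA arrays of 24 h read 565.0, 529.4, 772.8 and 549.2, and the one at 772.8 lay among the controls (603.7 to 1018). Kmt5c (Suv420h2), the paralog of Kmt5b, rose at 24 h by 0.29 (adjusted p 0.031), with signals of 543.0 to 615.2 above all controls (421.7 to 534.0), and gave 0.40 at 6 h (adjusted p 0.0684). Leaving out any 1 of 6 arrays ended the 24 h call of Kmt5c, as did no filter on low signals (adjusted p 0.0599) and a fit of only the groups compared (adjusted p 0.0667).

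Among the 7 tested genes listed as H3K4 methyltransferases, Setd1b and Setd7 fell with TSA at both times and the other 5 passed at neither. Setd1b, a catalytic subunit of a COMPASS complex, read 632.4 and 463.7 in the 6 h controls and 136.1 and 134.6 with TSA. Its 24 h controls ran from 517.0 over a median of 719.9 to 1048, and the TSA arrays read 426.7, 431.3, 358.2 and 210.0. Setd1b thus lay below all controls at both times, with log2 differences of -1.78 at 6 h (SE 0.29, adjusted p 0.000636) and of -1.01 at 24 h (SE 0.19, adjusted p 0.000707). The other tested probe set of Setd1b fell by 1.68 and 1.26. Setd7, which adds a single methyl group to H3K4 and also modifies other proteins, read 1153 and 1142 in the 6 h controls and 470.5 and 407.6 with TSA. At 24 h its controls ran from 1065 over 1192 to 1624, and TSA arrays read 888.0, 963.1, 656.5 and 664.5. The arrays did not overlap, and Setd7 fell by 1.33 (SE 0.20, adjusted p 0.000303) and by 0.65 (SE 0.13, adjusted p 0.000935). The genes Kmt2a, Kmt2c, Kmt2d and Kmt2e and the COMPASS enzyme Setd1a gave log2 differences with TSA of -0.27, -0.21, -0.57, -0.61 and -0.11 at 6 h, with adjusted p-values of 0.0691 and above. Kmt2d shows the split of the 24 h controls most plainly, with 160.1 to 205.8 in controls 1 to 4, 462.8 and 410.9 in controls 5 and 6, and 464.8 and 417.5 with BMP2.

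The writers of H3K36 methylation moved in different directions. Nsd1, a dimethylase of H3K36, read 632.5 and 512.7 in the 6 h controls and 223.7 and 177.5 with TSA, a log2 difference of -1.38 (SE 0.26, adjusted p 0.00151). At 24 h its TSA arrays read 566.8, 496.1, 366.8 and 442.0 and overlapped controls of 480.9 to 901.3. The smaller difference of -0.45 there (adjusted p 0.0441) ended with the split as a term (-0.27, adjusted p 0.162). A dimmer probe set of Nsd1 gave -0.52 at 6 h (adjusted p 0.123) and was called at 24 h, at -0.44 (adjusted p 0.0299). Nsd3 rose at 6 h, from 401.4 and 377.3 to 672.4 and 670.3, by 0.74 (SE 0.23, adjusted p 0.0286), but its other tested probe sets gave 0.17 and -0.33 (adjusted p 0.603 and 0.562). At 24 h the probe set with -0.33 was lower than control with either treatment (adjusted p 0.00328 with TSA and 0.0272 with BMP2), where the brightest Nsd3 probe set gave 0.28 and -0.04. By their brightest probe sets Nsd2 and Setd2, the trimethylase of H3K36, passed with TSA only at 24 h, by -0.50 (adjusted p 0.0214) and -0.36 (adjusted p 0.036), and both calls ended with the split as a term (adjusted p 0.0589 and 0.122). Their 6 h differences were larger, at -0.58 (adjusted p 0.101) and -0.55 (adjusted p 0.05, not called). The test of the change between the times passed for neither (adjusted p 0.896 and 0.64). Of the dimmer Nsd2 probe sets, 2 were called at 6 h, at -0.75 (adjusted p 0.0447) and -0.86 (adjusted p 0.0238). At 24 h these gave -0.68 (adjusted p 0.00452) and -0.31 (adjusted p 0.164), and another tested one gave -0.40 (adjusted p 0.0296). Dot1l, the H3K79 methyltransferase, fell at 24 h by 0.51 (adjusted p 0.00447), with TSA arrays of 304.5 to 405.2 under all controls (416.7 to 587.9). Its dimmer tested probe set gave -0.09 there (adjusted p 0.61).

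None of the 4 tested H3K9 methyltransferases passed with TSA at 6 h, where 26.3% of all tested genes did. Suv39h2, Ehmt1, Ehmt2 and Setdb1 gave -0.48, -0.45, -0.31 and 0.01 there (adjusted p 0.15, 0.164, 0.167 and 0.97). At 24 h Suv39h2, which trimethylates H3K9 in heterochromatin, fell from control signals of 112.2, a median of 138.8 and 165.4 to 34.3, 45.36, 47.23 and 60.42. Every TSA array was below every control, with a log2 difference of -1.11 (SE 0.15, adjusted p 4.02e-05) and of -1.03 with the split as a term. Its TSA signals are all under 100, so the size is a rough one. Of 11 cell cycle markers 3 fell with TSA at 24 h, where 20.1% of all tested genes were lower. Summed signals of these markers overlapped, at 2483 to 5022 with TSA and 3703 to 6454 in controls. The part of the markers in the Suv39h2 result was not tested. Ehmt1 (GLP), which dimethylates H3K9 with Ehmt2, fell by 0.55 at 24 h (adjusted p 0.00759), and by 0.35 with the split as a term (adjusted p 0.014). Ehmt2 (G9a) and Setdb1 gave -0.02 and -0.13 with TSA at 24 h, with adjusted p-values of 0.921 and 0.278.

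The arginine methyltransferases differed among themselves. Prmt1, the main enzyme of asymmetric arginine dimethylation, read 2507 and 2106 in the 6 h controls and 1445 and 1198 with TSA. At 24 h, controls of 1894 to 2874 with a median of 2306 stood above TSA arrays of 939.7, 1010, 1411 and 1244. Prmt1 fell by 0.79 at 6 h (SE 0.21, adjusted p 0.0128) and by 1.02 at 24 h (SE 0.13, adjusted p 3.59e-05). Carm1, a coactivator that methylates H3 arginines, read 811.1 and 633.9 against 406.7 and 329.8 at 6 h. At 24 h its controls ran from 446.8 over 523.4 to 867.8 and its TSA arrays read 402.5, 376.5, 287.1 and 280.8. These arrays did not overlap either, and Carm1 fell by 0.91 (SE 0.28, adjusted p 0.0261) and by 0.77 (SE 0.18, adjusted p 0.00334), the latter being 0.53 with the split as a term. Prmt5, the enzyme of symmetric arginine dimethylation, was not called with TSA (0.51 at 6 h with adjusted p 0.113, and 0.25 at 24 h with adjusted p 0.186), although its TSA arrays of 6 h, 1412 and 1332, lay above controls of 1061 and 859.4. The brightest probe sets of Carm1 and Prmt5, like those of Kdm1a and Kdm2b, are of a kind that may match several transcripts. Those of Prmt1, Smyd2 and Setdb1 are of another kind that may do so.

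Of the SMYD family, Smyd3 rose and Smyd2 fell with TSA at both times. Smyd3 read 121.4 and 118.3 in the 6 h controls and 242.4 and 251.6 with TSA, a rise of 0.88 (SE 0.21, adjusted p 0.00845). At 24 h TSA arrays of 126.3, 195.1, 273.2 and 181.4 overlapped controls of 110.9 to 144.8, and the rise was 0.43 (adjusted p 0.024). Smyd2, a methylase of H3K36 and of proteins such as p53, read 843.0 and 730.2 in the 6 h controls, 570.1 and 435.7 with TSA and 592.0 and 521.3 with BMP2. It fell with TSA by 0.62 at 6 h (SE 0.18, adjusted p 0.02) and by 0.34 at 24 h (adjusted p 0.0307), where TSA arrays of 528.7, 608.2, 604.8 and 680.7 reached the lowest control at 661.7 and the call ended with the split as a term (-0.24, adjusted p 0.103).

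Demethylases of the Kdm4 family, which act on H3K9 and H3K36, went separate ways. Kdm4a read 1074 and 976.9 in the 6 h controls and 611.5 and 547.7 with TSA. At 24 h its TSA arrays read 512.0, 476.7, 454.5 and 481.4 under controls of 775.9, a median of 850.8 and 1367. Kdm4a fell by 0.79 (SE 0.23, adjusted p 0.0214) and by 0.95 (SE 0.15, adjusted p 0.000154), and by 0.72 at 24 h with the split as a term. Kdm4b did the opposite at 6 h, with 368.3 and 374.6 in controls and 586.2 and 588.1 with TSA, a rise of 0.62 (SE 0.16, adjusted p 0.0126). At 24 h it was below all controls (259.2, a median of 322.3 and 406.2) with 187.6, 200.5, 222.0 and 231.3, a log2 difference of -0.58 (SE 0.10, adjusted p 0.000572). Kdm4c gave -0.19 and 0.05, with neither called.

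The H3K9 demethylases Kdm3a and Kdm3b fell at 24 h by 0.36 (adjusted p 0.0118) and 0.38 (adjusted p 0.0167), and Kdm3b also at 6 h by 0.60 (adjusted p 0.0218). With the split as a term the 24 h call of Kdm3b ended (adjusted p 0.0527). Jmjd1c, a relative of both, fell at 24 h by 0.53 (SE 0.12, adjusted p 0.00336), with TSA arrays of 1213, 1549, 1169 and 1088 under controls of 1596, a median of 1670 and 2423. Kdm6b, which removes H3K27 methylation, read 552.9, 576.4, 870.3 and 634.6 with TSA at 24 h among controls of 661.6, a median of 1106 and 1383. Those arrays overlapped, and the difference of -0.63 (SE 0.19, adjusted p 0.0203) became an adjusted p of 0.0505 with the split as a term. A dimmer probe set of Kdm6b gave -0.70 at 24 h (adjusted p 0.0269). Kdm2b, an H3K36 demethylase, fell by 0.48 at 24 h with an adjusted p of 0.0497, and its dimmer probe set fell by 0.61 (adjusted p 0.000284). Leaving out any 1 of 7 arrays ended the call by the brighter probe set, which ranged from -0.67 to -0.27 with single arrays left out, and it ended under 4 other settings, among them the deposited signals (adjusted p 0.0595). Kdm5b, which removes H3K4 methylation, was the only demethylase that rose at 24 h, by 0.57 (adjusted p 0.0106), and its other tested probe set gave 0.06. Kdm1a, Kdm2a, Kdm5a and Kdm7a gave log2 differences of -0.38, -0.44, 0.26 and -0.50 at 6 h and -0.14, -0.04, 0.16 and -0.21 at 24 h, none of them called. A dimmer probe set of Kdm1a was called at 6 h, at -0.42 (adjusted p 0.0478).

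**Figure D3:**
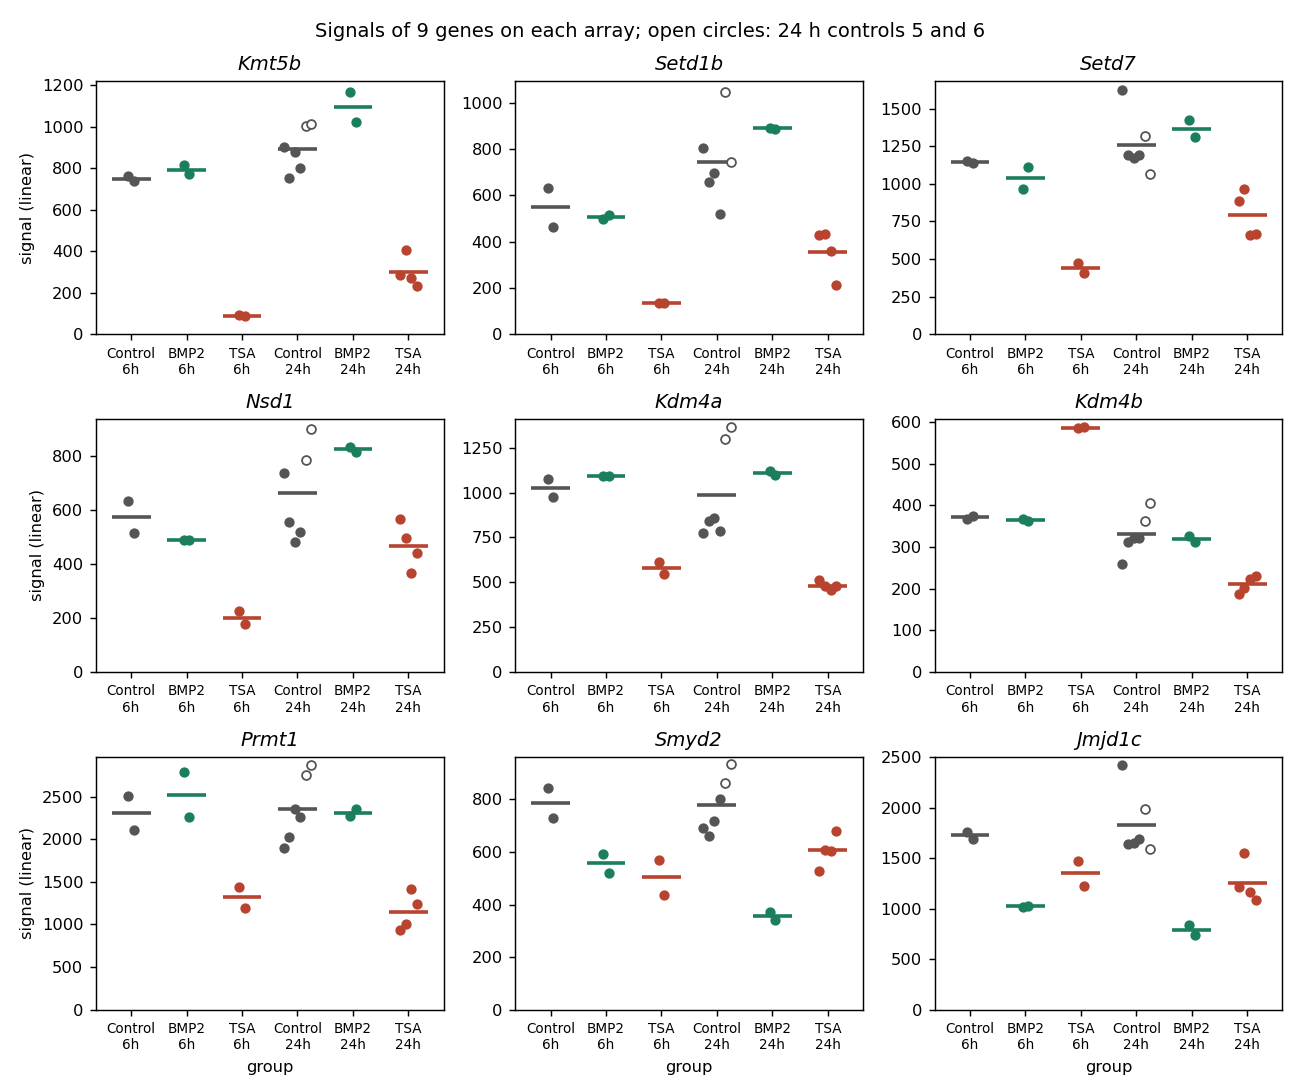
Each point is the quantile-normalized signal (linear axis from 0) of 1 array for 9 genes, by group, with a line at the group mean and open circles for 24 h controls 5 and 6. Kmt5b falls to 90.9 and 85.01 with TSA at 6 h, Kdm4b is above control at 6 h and below it at 24 h, and Smyd2 and Jmjd1c are lowest with BMP2 at 24 h.

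The TSA calls at 6 h rest on pairs of arrays. The calls of Kmt5b, Setd1b, Setd7 and Nsd1 stood whichever of the 4 arrays was left out, with a highest adjusted p of 0.0272. Each of the other 8 calls ended when at least 2 of the 4 arrays were left out in turn, and the count of 12 became 4 to 7. None of these fits used the replicate number as a block. By range, 25 of the 37 genes had both TSA arrays under both controls at 6 h and 7 had both above, where 36% and 40.6% of all tested genes did so. At 24 h 14 of the 23 calls stood whichever of the 10 arrays was left out. The call of Kdm3b ended without TSA replicate 4, that of Nsd2 without TSA replicate 1 or 4, that of Smyd3 without TSA replicate 2 or 3 and that of Kdm6b without TSA replicate 1 or 2, while for Setd2, Kmt5c, Nsd1, Smyd2 and Kdm2b leaving out any 1 of 5 to 7 arrays ended the call. By range, 11 genes had all 4 TSA arrays under all 6 controls and 1, Kmt5c, had them above, where 11.7% and 11.8% of all tested genes did so. With the split as a term 17 of the 23 calls of 24 h were made, 14 lower and 3 higher, beside 18.2% and 19% of all tested genes. The 6 calls that this term ended (Nsd1, Nsd2, Setd2, Smyd2, Kdm3b and Kdm6b) passed in the fit with the replicate number of the arrays as a block, where their differences were the same as with the split and the adjusted p-values 0.0197, 0.0137, 0.0149, 0.0442, 0.0203 and 0.00366. Kmt2c was called there too, at 0.32 (adjusted p 0.0099). With controls 1 to 4 only and the block, the calls of Nsd1, Setd2, Smyd2 and Kdm3b ended again (adjusted p 0.0528, 0.0653, 0.0739 and 0.0724).

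Promoter sequences are shown for 4 of the genes that fell with TSA at both times. Each run is the stretch of 250 bases before the annotated start in RefSeq (build GRCm38.p6), 5′ to 3′ on the strand of the gene. Capitals mark the GC box (GGGCGG or CCGCCC) and the CCAAT box (CCAAT or ATTGG) on both strands. The first run is Kmt5b at chr19:3767171-3767420, plus strand, where RefSeq lists 2 starts and the one listed first is shown. Setd7 lies at chr3:51560824-51561073, Kdm4a at chr4:118180044-118180293 and Prmt1 at chr7:44986421-44986670, all on the minus strand.
Kmt5b: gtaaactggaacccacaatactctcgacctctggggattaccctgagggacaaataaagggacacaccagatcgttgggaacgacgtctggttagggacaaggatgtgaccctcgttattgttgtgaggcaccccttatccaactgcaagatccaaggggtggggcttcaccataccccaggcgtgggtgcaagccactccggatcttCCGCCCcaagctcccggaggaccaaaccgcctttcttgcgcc
Setd7: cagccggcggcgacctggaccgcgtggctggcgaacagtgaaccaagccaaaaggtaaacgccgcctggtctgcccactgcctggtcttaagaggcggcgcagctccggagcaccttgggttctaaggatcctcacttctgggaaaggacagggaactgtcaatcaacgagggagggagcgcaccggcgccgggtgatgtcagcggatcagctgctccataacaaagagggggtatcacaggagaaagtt
Kdm4a: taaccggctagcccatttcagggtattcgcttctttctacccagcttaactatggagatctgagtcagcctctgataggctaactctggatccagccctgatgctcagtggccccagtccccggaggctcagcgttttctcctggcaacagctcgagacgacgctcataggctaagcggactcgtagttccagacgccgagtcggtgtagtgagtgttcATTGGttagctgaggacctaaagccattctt
Prmt1: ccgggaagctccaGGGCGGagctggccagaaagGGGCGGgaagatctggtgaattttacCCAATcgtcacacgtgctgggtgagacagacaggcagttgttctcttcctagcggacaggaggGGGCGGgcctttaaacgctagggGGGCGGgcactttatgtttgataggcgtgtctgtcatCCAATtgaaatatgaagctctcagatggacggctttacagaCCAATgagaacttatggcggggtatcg

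These 4 promoters differed in the GC and CCAAT boxes they held. The GC box occurred 1 time in Kmt5b and 4 times in Prmt1, and the CCAAT box 1 time in Kdm4a and 3 times in Prmt1. Neither box was in the Setd7 stretch. None of the 4 held the letters TATAAA, and the E-box letters CACGTG occurred only in Prmt1, 1 time. Of all 32851 promoter stretches of that length, 32.7% held a GC box and 33.8% a CCAAT box. The dinucleotide CG was found 11 times in Kmt5b, 17 in Setd7, 12 in Kdm4a and 13 in Prmt1, beside a median of 6 over all stretches. Promoters were matched for 27 of the 40 genes, and of their 39 stretches 28 held a GC box, 14 a CCAAT box and 0 the letters TATAAA, which 12.4% of all stretches held. The E-box letters were in 4 of the 39, beside 6.02% of all stretches. A match describes letters only.

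The TSA effect at 6 h and at 24 h rests on separate controls and separate treated arrays. Of the 12 genes called at 6 h, 10 were called in the same direction at 24 h, which is 83.3% of the 6 h calls and 43.5% of the 24 h calls. Over all tested genes 1411 of 2778 calls of 6 h recurred, 50.8% of those of 6 h and 34.4% of the 4096 of 24 h. Nsd3 was called only at 6 h, and Kdm4b was called at both times in opposite directions. The difference between the effects was tested directly and passed for 2 genes, where 11.6% of all tested genes passed, 5.08% with a higher and 6.51% with a lower effect at 24 h. Kmt5b was less reduced at 24 h, by 1.20 (SE 0.23, adjusted p 0.00626), and the Kdm4b effect turned by -1.19 (SE 0.19, adjusted p 0.00245). Both passed as well with the split of the 24 h arrays as a term (1.29 and -1.09), and with any single array left out. With that term Nsd1 (1.11, adjusted p 0.0115) and Kmt5a (-0.80, adjusted p 0.0222) passed too. For Setd1b, Setd7 and Suv39h2 the effects of both times differed in size, but the test of that difference passed in neither fit.

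**Figure D4:**
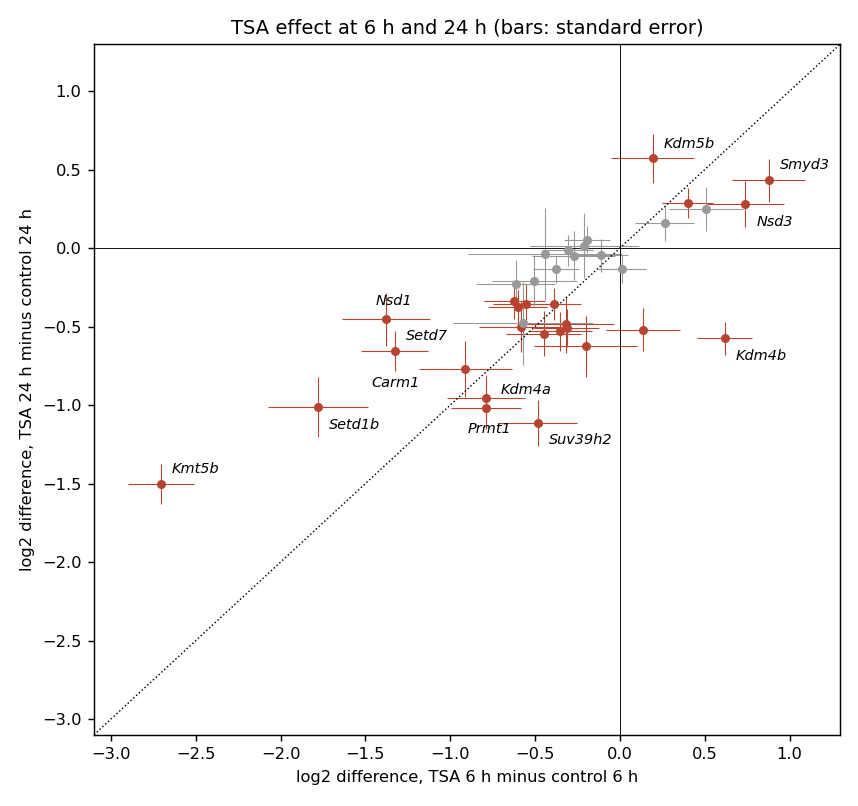
Each point is one of the 37 genes, with the log2 difference of TSA against control at 6 h on the horizontal axis and at 24 h on the vertical axis, bars for the standard error, and a dotted line of equal effect. Red points were called at either time. Kmt5b lies at -2.70 and -1.50, and Kdm4b alone among the called genes lies at a rise at 6 h (0.62) and a fall at 24 h (-0.58) that both passed.

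BMP2 lowered 2 of the genes clearly, Jmjd1c and Smyd2. Jmjd1c read 1764 and 1690 in the 6 h controls and 1018 and 1026 with BMP2, below both. At 24 h it read 841.8 and 737.3, where the controls had a lowest signal of 1596, a median of 1670 and a highest of 2423. The difference was -0.74 at 6 h (SE 0.19, adjusted p 0.0749) and Jmjd1c fell by 1.17 at 24 h (SE 0.15, adjusted p 7.9e-05), to a ratio of mean signals of 0.431. Smyd2 with BMP2 read 371.1 and 341.5 at 24 h against controls of 661.7, a median of 759.1 and 933.5. It gave -0.48 at 6 h (adjusted p 0.429) and fell by 1.05 at 24 h (SE 0.15, adjusted p 0.000114), a ratio of 0.458. Both 24 h calls stood with any array left out, and against controls 5 and 6 only they were -1.14 (adjusted p 0.000927) and -1.26 (adjusted p 0.000333). The other calls of BMP2 at 24 h were weaker. Prmt5 read 364.8 and 491.8 below controls of 570.5, a median of 679.0 and 712.5, a log2 difference of -0.59 (SE 0.18, adjusted p 0.0354). Setdb1, the H3K9 methyltransferase that silences retroelements, read 375.1 and 355.7 below controls of 436.3, a median of 481.8 and 547.8, a log2 difference of -0.37 (SE 0.11, adjusted p 0.0358). Against controls 5 and 6 only, the calls of Prmt5 and Setdb1 ended, with -0.53 (adjusted p 0.231) and -0.34 (adjusted p 0.18). Without control replicate 1 or 3 or either BMP2 array, 2 genes were called in place of 4, and with the split as a term 2 were called, both lower, beside 11.1% of all tested genes, 4.95% lower and 6.16% higher.

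The probe sets of a gene did not always move alike with BMP2. A dimmer probe set of Kdm7a, a demethylase of H3K9 and H3K27, was 1.03 higher at 24 h (adjusted p 0.00104), while the brightest gave 0.08. Kmt2e gave 0.40 by its brightest probe set and -0.74, -1.11 and -0.91 by 3 others, none called. By range, BMP2 lay above all controls for 5 genes and below for 12 at 6 h, beside 21.9% and 22.8% of all tested genes, and above for 2 and below for 6 at 24 h, beside 17.3% and 14.6%. The BMP2 effect differed between the times for 0 of the 37 genes (limma, adjusted p), where 0.766% of all tested genes passed, 0.577% with a higher and 0.189% with a lower effect at 24 h, and for 1 gene by an unadjusted p under 0.05, beside 8.69% of all tested genes.

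TSA and BMP2 were also compared with each other. At 6 h 14 genes differed, 9 lower and 5 higher with TSA, where 28% of all tested genes differed, 12.5% lower and 15.5% higher. TSA minus BMP2 on the log2 scale was -2.78 for Kmt5b, -1.68 for Setd1b, -1.19 for Setd7 and -1.17 for Nsd1 (adjusted p 1.29e-06, 0.000753, 0.000515 and 0.00391). Prmt5 and Kmt5c were higher by 0.65 (adjusted p 0.0426) and 0.50 (adjusted p 0.0243), and Kdm7a was lower, at -0.78 (adjusted p 0.0328). With any of the 4 arrays left out, 5 to 7 genes differed, and the calls of Kmt5b, Setd1b, Setd7 and Smyd3 (0.91 higher, adjusted p 0.00602) were the ones that none of these ended. By range, both TSA arrays lay above both BMP2 arrays for 8 genes and below them for 21, beside 41.4% and 35.4% of all tested genes. At 24 h 19 genes differed, 15 lower and 4 higher, against 38.3% of all tested genes, 21.2% lower and 17.2% higher, and the ranges did not overlap for 8 genes above and 19 below, beside 24.7% and 31.1%. Since TSA and BMP2 arrays of 24 h lie on opposite sides of the Xist split, only controls connect them. With the split as a term 6 genes differed, 4 lower and 2 higher, where 14.2% of all tested genes did, 7% lower and 7.21% higher. Kmt5b (-1.53, adjusted p 0.000448), Setd7 (-0.89, adjusted p 0.0239), Kdm4a (-0.47, adjusted p 0.0274) and Smyd2 (1.03, adjusted p 0.00213) were among them, as were Kmt5a and Kmt2c. Kmt2d, with -1.27 (adjusted p 0.0113) as first fitted, gave -0.10 (adjusted p 0.868) with the split, and Carm1 went from -0.97 to -0.26. Kmt2e was lower with TSA by its brightest probe set (-0.63, adjusted p 0.0224), but 2 dimmer ones were higher, at 1.40 (adjusted p 0.0478) and 1.68 (adjusted p 0.0429). Without BMP2 replicate 1 the count was 8, and without BMP2 replicate 2 it was 11.

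In the control cultures Ehmt2 was the single gene of the 37 that differed between 24 h and 6 h, where 4.36% of all tested genes did, 2.53% lower and 1.82% higher. It read 2079 and 1722 at 6 h and 940.9, a median of 1001 and 1178 at 24 h, a log2 difference of -0.85 (SE 0.12, adjusted p 0.00289). No 24 h control reached a 6 h control, as for 2 of the 37 genes and 9.35% of all tested genes, while 0 genes lay above, beside 14.9%. Without control replicate 1 of 6 h the call ended. With the split as a term Kmt2d (-0.71, adjusted p 0.0417) and Kdm4a (-0.32, adjusted p 0.0442) passed as well. Dimmer probe sets of Dot1l and Kdm2a were lower at 24 h, at -0.91 (adjusted p 0.00681) and -1.01 (adjusted p 0.024).

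Other genes of histone methylation, from lists that hold none of the 37, were measured in the same fits. Their counts stand beside the shares of all tested genes given above, which with TSA were 11.8% lower and 14.4% higher at 6 h and 20.1% lower and 18.6% higher at 24 h, and with BMP2 at 24 h 7.72% lower and 9.93% higher. Of 15 further methyltransferases tested, 3 fell and 1 rose with TSA at 6 h, and 6 fell and 1 rose at 24 h. Prmt6 fell by 0.61 and 0.54, Kmt2b by 0.66 and 0.46, and Ezh2, which writes H3K27 methylation, by 0.47 at 24 h (adjusted p 0.00392). Setdb2 rose by 0.74 and 0.30. Of 10 further demethylases, 4 fell and 3 rose at 6 h and 5 fell at 24 h. Phf2 fell by 1.15 and 0.39, Kdm5c by 0.89 and 0.36, and Phf8 by 0.79 and 0.68. Kdm1b rose by 0.87 at 6 h (adjusted p 0.00597) and fell by 0.40 at 24 h (adjusted p 0.0245). With BMP2 at 24 h, Prmt7 fell by 0.70, Kdm1b fell by 0.73, and Smyd4 and Setd5 rose by 0.75 and 0.74, while no gene of these lists passed with BMP2 at 6 h.

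Partners of the enzymes were measured too, and their counts stand beside the same shares of all tested genes. With TSA these were 11.8% lower and 14.4% higher at 6 h and 20.1% lower and 18.6% higher at 24 h. With BMP2 at 24 h they were 7.72% lower and 9.93% higher. Of 14 subunits of the COMPASS and MLL complexes, in which the H3K4 writers work, 4 fell and 1 rose with TSA at 6 h, 5 fell at 24 h and 0 passed with BMP2 at either time. Hcfc1 fell by 1.88 (adjusted p 0.000823) and 0.89 (adjusted p 0.00358), Rbbp5 rose by 0.61 at 6 h, and Ash2l fell by 0.52 at 24 h (adjusted p 0.0017). Of 11 partners of H3K9 methylation, 3 fell and 1 rose with TSA at 6 h and 4 fell at 24 h. Zfp644 and Wiz, zinc finger proteins of the Ehmt1 and Ehmt2 complex, fell by 0.97 and 0.75 at 6 h and by 0.54 and 0.71 at 24 h, and Trim28 by 0.54 at 24 h. Among 17 readers and partners of H3K36, H3K79 and H4K20 methylation, 2 fell and 1 rose at 6 h and 7 fell and 2 rose at 24 h. Zmynd11, a reader of H3K36 methylation, fell by 1.21 and 0.54. Of 13 readers of H3K4 methylation, 3 fell and 2 rose at 6 h and 5 fell at 24 h, with Bptf at -0.93 and -0.43, Ing5 at -0.60 and -0.78, and Taf3 at 0.78 at 6 h. Of 10 genes that supply the methyl donor, 2 fell at 6 h, and 4 fell and 2 rose at 24 h. Ahcy, which clears the product of methylation reactions, fell by 0.84 (adjusted p 0.00115) and 0.90 (adjusted p 5.62e-06) with TSA, and rose by 0.40 with BMP2 at 24 h (adjusted p 0.0362). Also with BMP2 at 24 h, 2 of the H3K9 partners rose (Cbx5 and Mphosph8) and 1 fell (Cdyl), 2 of the readers and partners of H3K36, H3K79 and H4K20 methylation rose (Zmynd11 and Trp53bp1) and 1 fell (Mtf2), and 1 reader of H3K4 methylation rose (Chd1).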

How the data were processed

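RNA of neurosphere cultures was hybridised to 18 Affymetrix mouse expression arrays. The authors deposited 1 intensity per probe set on a linear scale. The submitters' processing notes name MAS5 (version not given), but in the methods the arrays were normalized by quantiles in dChip. The number of arrays limits the precision. Groups came from the sample titles, and 0 value columns were left without a sample. Here the arrays were brought to common quantiles (R 4.3.3, limma 3.58.1), and log2(signal + 32) was analysed, a scale that understates changes of dim genes. Probe sets entered the test where at least 1 group averaged 100 or more, which 19498 did. A single limma model of the 6 groups was fitted (eBayes with trend), and Benjamini-Hochberg adjustment ran over every tested probe set within each of 9 comparisons, at a threshold of 0.05. Symbols came from the platform annotation, in which 34958 probe sets have 1 symbol and 932 have several, and the latter were not used. The fit was tested on simulated data.

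The enzymes and related lists were chosen with earlier results of these data known. All 40 genes were named. Full values were given for the 8 called genes with the largest difference per treatment comparison and for genes called with both treatments at a time, and at most 3 genes per related list and comparison were named. Values at the other time were added for genes so named. Kdm4b, Kdm1b, single probe sets and the TSA against BMP2 examples were chosen after their values were seen. At 24 h, residuals of TSA arrays and of the controls with the same number correlated at 0.32 to 0.58, with control residuals about the mean of all 6 controls. About the mean of controls 1 to 4 only, the correlations were 0.47 to 0.62. Each was highest at its own number, so the numbers pair these arrays. This pairing comes from the data, since the labels say nothing of it. With the replicate block, TSA at 24 h gave 24 calls, with Kmt2c added (0.32, adjusted p 0.0099). Alternatives changed the normalization, the added constant, the filter, the probe set, the samples in the fit, the replicate block, the 24 h split, single arrays and the criteria (ratio over 2, difference over 100, and an unadjusted p under 0.1 for the study's confidence).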

Additional observations from a re-analysis of the deposited data

Results flagged for a closer look

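Single arrays and changes between the times were examined for every tested gene. In groups of 4 to 6 arrays, 74 sets of signals were looked at and 2 had an array far from the others, while chance gives about 1 in 20. Setd1a read 337.3 in 24 h control replicate 6 and 227.7 to 251.4 in the other 5 controls, a gap of 0.784 of the whole range. Kmt5a read 772.8 in TSA 24 h replicate 3 and 529.4 to 565 in the other 3 TSA arrays, a gap of 0.854 of the range.

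The TSA effect differed between 24 h and 6 h by 1.20 for Kmt5b and by -1.19 for Kdm4b on the log2 scale, in a test of the difference itself (limma, adjusted p 0.00626 and 0.00245).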

How the results depend on the processing

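Counts of called genes kept within 1.5 times of the value given for TSA at 24 h under the deposited signals, other constants, no filter, the replicate block and the split. In the order BMP2 6 h and 24 h, TSA 6 h and 24 h, TSA minus BMP2 6 h and 24 h, change of the TSA and BMP2 effects, and control times, the counts were 0, 4, 12, 23, 14, 19, 2, 0 and 1. With only the groups compared, BMP2 6 h gave 1, TSA 6 h 20, TSA 24 h 15, TSA minus BMP2 6 h 22, and control times 0. With no filter, BMP2 24 h gave 2 and TSA minus BMP2 6 h 9. With the split as a term, BMP2 24 h gave 2, TSA minus BMP2 24 h 6, the change of the TSA effect 4 and control times 3, and BMP2 24 h against controls 5 and 6 only, an alternative chosen after seeing the data, gave 2. By the study's criteria BMP2 24 h gave 2, TSA 6 h 5, TSA 24 h 4, TSA minus BMP2 5 at 6 h and 6 at 24 h, and control times 0. Shares of all tested genes under these other settings were not computed, apart from the treatment comparisons of 24 h with the split. The counts alone do not show whether the listed genes differ from the rest. With single arrays left out, the ranges were 0 to 0, 2 to 5, 4 to 7, 17 to 21, 5 to 7, 8 to 21, 2 to 4, 0 to 0 and 0 to 1, with a lone array assumed to vary like the other groups. The Nsd3 difference with TSA at 6 h turned to -0.33 with another probe set, and that of TSA against BMP2 at 6 h to -0.076 and -0.39 with 2 others. For TSA against BMP2 at 24 h, Kdm5b turned to -0.32 with its other probe set, and Kmt2e to 0.82, 1.40 and 1.68 with 3 others and to 0.82 with the mean of its probe sets. The causes were not tested, apart from fewer arrays where arrays were left out.

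With the replicate block, BMP2 gave 1 call at 6 h and 12 at 24 h, TSA 22 at 6 h and 24 at 24 h, TSA minus BMP2 21 at 6 h and 26 at 24 h, the change of the TSA effect 9, that of the BMP2 effect 4 and control times 6. The shares of all tested genes with this block were not computed. At 6 h same-number residuals correlated at 0.7 for BMP2 and control, 0.56 for TSA and control and 0.63 for TSA and BMP2. Each was highest at its own number, so by this measure the 6 h arrays are paired too, which the main fit did not use. In groups of 2 arrays the residuals mirror each other, so each of these is a single value. For BMP2 and control at 24 h the correlations were 0 and -0.13, and those arrays share only a number. Controls 5 and 6 alone hold their replicate numbers, so the block takes them out of the comparison. BMP2 at 24 h then stands only against controls 1 to 4, across the Xist split. Its 12 calls cannot be told apart from that split, nor can the 26 of TSA minus BMP2 or the 4 of the BMP2 effect. The block in the fit of all groups ended no call of TSA at 24 h. With controls 1 to 4 only and the block, chosen after seeing the data, 20 genes were called and the calls of Setd2, Nsd1, Smyd2 and Kdm3b ended (adjusted p 0.0653, 0.0528, 0.0739 and 0.0724). Signals under 100 are dim, which limits Suv39h2 and the 6 h size of Kmt5b.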
